A study of Mus musculus with 285 samples.

Results

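Nuclear genes of respiratory complexes II to V were followed in NeuN-stained neuron segments of the mouse brain. Members were the genes named *Sdha*, *Sdhb*, *Sdhc* or *Sdhd*, or with a name starting with *Uqcr*, *Cox4* to *Cox8* or *Atp5*, which gave 47 of the 19962 genes of the panel. Complex II had 4 members, complex III 8, complex IV 18 and complex V 17, and 40 of the 47 passed the study's detection limit (4, 8, 11 and 17 in the same order). The samples came from 15 female C57BL/6J mice, 3 in each of 5 groups. CTRL mice were sham-irradiated. Irradiated mice received whole-brain electrons at ultra-high dose rate (FLASH) or at 0.09 Gy per second (CONV), in 1 fraction of 10 Gy (FLASH 1x10Gy and CONV 1x10Gy) or in 3 fractions of 10 Gy given 48 h apart (FLASH 3x10Gy and CONV 3x10Gy). The series text gives an age of 9 weeks and the methods 10 weeks. Collection of the brains followed the final dose by 24 h. Probes were collected by GeoMx from stained segments of fixed sections in CA1, CA3, the dentate gyrus (DG), the stratum oriens (SO) and the cortex. All groups were wild-type, and the letters A, B and C name the mice of a group.

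Oxidative phosphorylation moves electrons from nutrients to oxygen and stores the energy as a proton gradient across the inner mitochondrial membrane. Complex II (succinate dehydrogenase) also works in the citric acid cycle, complex III passes electrons from ubiquinol to cytochrome c, complex IV (cytochrome c oxidase) reduces oxygen, and complex V (ATP synthase) uses the gradient to make ATP. Complexes III to V combine nuclear subunits with subunits encoded by mitochondrial DNA, whereas complex II is nuclear throughout. Neurons depend on this pathway to restore ion gradients after firing, and several complex IV subunits and the c subunit of ATP synthase exist as isoforms from separate genes.

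Of 90 neuron libraries 87 were kept. CA1, CA3 and DG had 1 library per mouse, SO had 13 in all (FLASH 3x10Gy B and CONV 1x10Gy C had none), and the cortex had 2 per mouse except CONV 3x10Gy B, which had 1. Libraries held 157915 to 2022070 counts, with region medians from 384199 in SO to 1096662 in DG. Levels are TMM-scaled CPM (counts scaled to library size), and since each gene had 1 probe they are compared only within a gene. Background was high: negative probes reached 43.1 to 67.8% of the mean gene count in the hippocampal sums (the background share), so part of every level is background. The segments matched their labels by marker sums: CA3 markers had a median of 401.8 CPM in CA3 against 131.0 in CA1, granule cell markers 484.7 in DG against 121.0, and CA1 markers 639.2 in CA1 against 157.1 in CA3. In SO the CA1 markers reached 594.2 CPM, near their CA1 level. Fewer neurons in a segment and less RNA per neuron cannot be told apart in these data.

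The ubiquitous isoforms of complex IV were measured in neurons, and their tissue-restricted partners were near background. A gene counts as detected in a library above a limit set from the spread of the negative probes. *Cox4i1* passed it in 86 of 87 libraries and its partner *Cox4i2*, known from lung and hypoxic cells, in 3. *Cox6a1* passed in 86 and *Cox6a2* in 3, *Cox7a2* in 87 and *Cox7a1* in 4, and *Cox8a* in 87 and *Cox8b* in 0, where *Cox6a2*, *Cox7a1* and *Cox8b* are the heart and skeletal muscle forms. *Cox6b1* passed in 66 libraries and the testis form *Cox6b2* in 3, *Cox7b* in 85 and *Cox7b2* in 4, and *Cox8c* in 3. These 7 genes were the only members that did not pass the filter. Their hippocampal means lay between 33.8 CPM (*Cox8b*) and 46.8 CPM (*Cox4i2*), over a background of 21.6 to 33.98 CPM per negative probe.

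**Figure D1:**
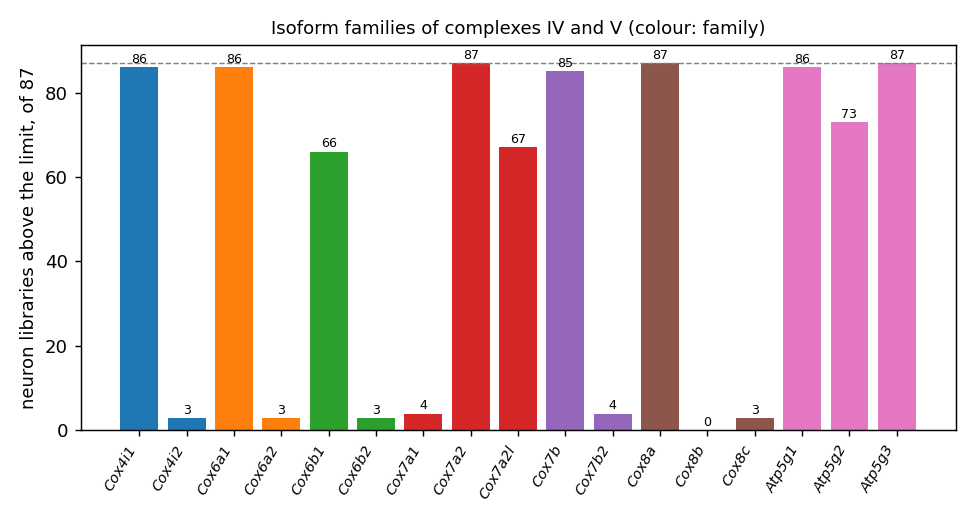
Number of the 87 neuron libraries (y axis) in which each isoform gene of complexes IV and V (x axis, coloured by family) lay above the detection limit. The ubiquitous forms stand at 66 to 87 libraries and the 7 tissue-restricted forms at 0 to 4.

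Of the detected members 3 were rarely above the limit. *Sdhc*, a membrane anchor of succinate dehydrogenase, passed the limit in 12 libraries, *Uqcrc1*, a core protein of complex III, in 14, and *Uqcrfs1*, the Rieske iron-sulfur protein, in 17. The other 37 detected members passed it in at least 46 libraries. A weak signal from 1 probe does not say that the transcript is rare. The *Cox7c* probe also lists the gene *Gm12338*, so its values cannot be given to *Cox7c* alone.

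Most members of complexes IV and V, and a few of complexes II and III, were higher in neurons of CA3 than of CA1. Of 40 members 25 were higher and 0 lower in CA3 (edgeR, adjusted p < 0.05, mouse as block, 15 mice), where 11.4% of all 10019 tested genes were higher and 11.7% lower. The median log2 fold of the members was 0.32 and that of all genes -0.02. Complex IV had 9 of 11 members higher (median 0.47), complex V 12 of 17 (0.34), complex III 3 of 8 (0.21) and complex II 1 of 4 (0.13). Probe signal differed between complexes. Mean CPM of the detected members in CA1 ran from 93.6 to 247 in complex IV and from 81.1 to 436 in complex V. It ran from 52.1 to 151 in complex III and from 56.6 to 110 in complex II, over a background of 24.0 to 36.5 CPM per negative probe. Whether the split by complex follows signal level was not tested. CA3 had the highest mean of the 5 regions in 28 of 40 members and CA1 in 0.

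*Cox4i1*, a structural subunit through which complex IV responds to ATP, had a lowest, median and highest level of 111, 179 and 244 CPM in CA1 and of 119, 261 and 354 CPM in CA3. The ranges of the regions overlapped across mice, but within each of the 15 mice CA3 was higher. The log2 fold was 0.60 (SE 0.08, adjusted p = 6.91e-10). *Cox7b*, a small subunit encoded on the X chromosome, rose from 93.8, 154 and 233 CPM in CA1 to 94.5, 238 and 360 CPM in CA3, and 14 of 15 mice shared the direction (0.61, SE 0.08, adjusted p = 1.08e-10). *Cox6a1*, the ubiquitous form of another small subunit, was higher in CA3 in 15 of 15 mice (0.57, SE 0.08).

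In complex V the largest fold was that of *Atp5b*, the catalytic beta subunit. It had 164, 229 and 325 CPM in CA1 and 177, 352 and 581 CPM in CA3, with 14 of 15 mice higher in CA3 (0.59, SE 0.08, adjusted p = 2.8e-10). *Atp5j*, coupling factor 6 of the peripheral stalk, had 0.55 (SE 0.09), and *Atp5e*, the epsilon subunit, 0.51 (SE 0.08). The members were not raised alike: *Atp5c1*, the gamma subunit of the central stalk, had 0.01 (SE 0.09), and *Atp5l*, subunit g of the membrane part, 0.01 (SE 0.08).

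In complex III the small subunit gene *Uqcr11* led with 66.7, 115 and 153 CPM in CA1 and 86.6, 168 and 227 CPM in CA3 (0.45, SE 0.08, 14 of 15 mice). *Uqcrq* (0.37, SE 0.09) and *Uqcr10* (0.29, SE 0.09) followed. *Uqcrc1* (0.19, SE 0.11, adjusted p = 0.227) and *Uqcrfs1* (0.22, SE 0.10, adjusted p = 0.119) did not pass. In complex II the membrane anchor *Sdhd* passed (0.26, SE 0.09, adjusted p = 0.0175), while the flavoprotein *Sdha* (0.20, SE 0.09, adjusted p = 0.0816) and the iron-sulfur protein *Sdhb* (0.06, SE 0.08, adjusted p = 0.724) did not.

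**Figure D2:**
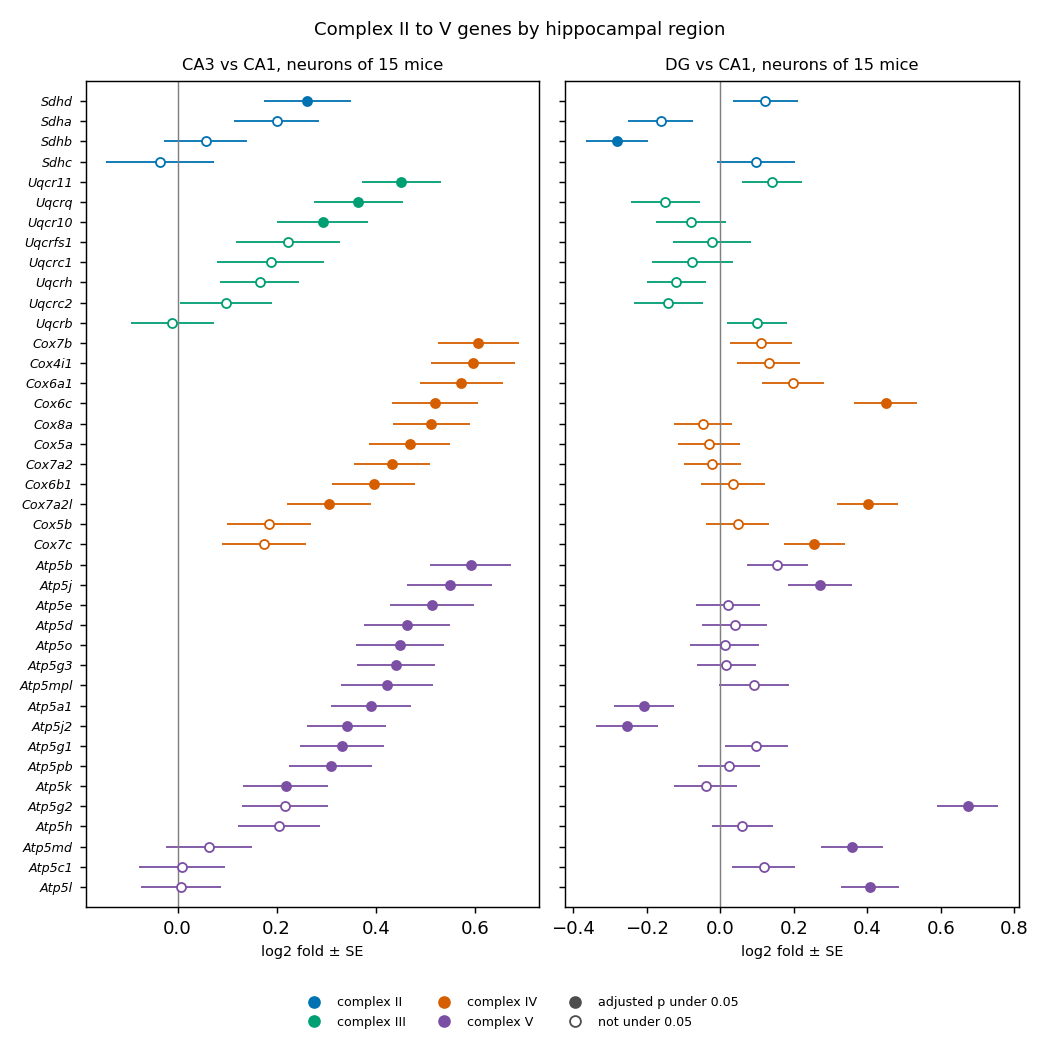
Log2 fold with its standard error (x axis) for each of 40 members (y axis, grouped and coloured by complex) in CA3 against CA1 (left) and DG against CA1 (right), neurons of 15 mice. Filled points passed adjusted p < 0.05: 25 to the right in CA3, and 7 to the right and 3 to the left in DG.

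The difference was present in most mice and varied in size. The median of CA3 minus CA1 over the 40 members ran from -0.08 in CONV 1x10Gy A, the only mouse below 0, to 0.62 in FLASH 3x10Gy C. In CONV 1x10Gy A the background share was 75.3% in CA3 and 61.7% in CA1. Over all mice the background share had a median of 61.4% in CA3 and 59.96% in CA1, and with it as a covariate 30 members were higher. With the 3 CTRL mice alone 4 members were higher, at a median of 0.28. CA1 and CA3 of a mouse were on the same slide and plate in 15 of 15 mice.

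Other marker sums moved with the region as well. The sum of 8 general neuron markers had a median of 4176 CPM in CA3 (1909 to 6026) and 2073 in CA1 (1328 to 2410), and 5 of the 8 were higher. The sum of 6 oligodendrocyte markers was 878.3 CPM in CA3 (732.3 to 1256) and 522.8 in CA1 (382.1 to 675.2), and all 6 were higher. Astrocyte markers were at 407.7 and 403.1 CPM with 0 of 5 tested higher, and none of these lists was at 0. Their part in the result was not tested.

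Promoter sequences of some of these genes are shown because many members stood higher together, with and without a known motif. RefSeq promoters on GRCm38.p6, from 250 bases before the start to 50 after it, were matched for 36 of the 47 members and searched on both strands for the letters of 3 motifs that do not contain each other. The NRF1 motif, the letters GCGCA followed by their reverse complement and named for a factor known to act on respiratory chain genes, was in 4 of 36 members (11.1%) and in 1.07% of all genes in the table. The ETS motif CCGGAAG, which GABPA binds, was in 13 (36.1% against 9.93%), and the YY1 motif AAGATGGCG in 2 (5.56% against 1.64%). At least 1 of the 3 was in 16 members (44.4% against 12.1%). A match describes these letters and is no binding site by itself. The shares for all genes are over 27025 genes, which include genes not detected here. Detected genes alone were not used for comparison, and motifs of called and uncalled members were not compared. The 150 bases before the start of 5 genes called in CA3, with at least 1 from each complex, are given 5′ to 3′ with motifs in capitals, first *Cox6a1*, *Uqcr11* and *Sdhd*, which hold an ETS motif, then *Atp5b* and *Cox7b*, which hold none of the 3 there.
Cox6a1, chr5:115348959-115349108, minus strand: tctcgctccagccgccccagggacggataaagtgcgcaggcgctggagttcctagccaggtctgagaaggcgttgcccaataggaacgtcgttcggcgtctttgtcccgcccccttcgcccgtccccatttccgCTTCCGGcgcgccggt
Uqcr11, chr10:80406822-80406971, minus strand: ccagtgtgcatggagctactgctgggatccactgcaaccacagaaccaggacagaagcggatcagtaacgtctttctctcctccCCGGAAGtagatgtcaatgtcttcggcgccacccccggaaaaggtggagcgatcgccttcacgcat
Sdhd, chr9:50603850-50603999, minus strand: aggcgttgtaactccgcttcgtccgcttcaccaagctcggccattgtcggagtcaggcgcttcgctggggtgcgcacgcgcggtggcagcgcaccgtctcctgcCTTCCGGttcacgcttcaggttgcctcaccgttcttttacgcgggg
Atp5b, chr10:128083157-128083306, plus strand: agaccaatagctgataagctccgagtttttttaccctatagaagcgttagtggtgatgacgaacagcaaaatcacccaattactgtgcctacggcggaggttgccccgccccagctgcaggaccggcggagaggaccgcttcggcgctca
Cox7b, chrX:106015550-106015699, plus strand: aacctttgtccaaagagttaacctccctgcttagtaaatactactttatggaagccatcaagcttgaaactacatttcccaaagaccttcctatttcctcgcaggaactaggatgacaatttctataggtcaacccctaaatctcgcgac

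Between DG and CA1 neurons single members differed in both directions, and the balance changed with background in the fit. Of 40 members 7 were higher and 3 lower in DG, where 15.8% of all genes were higher and 17.3% lower, and the median was 0.04 (all genes -0.03). Higher were *Atp5g2*, *Atp5l*, *Atp5md* and *Atp5j* of complex V and *Cox6c*, *Cox7a2l* and *Cox7c* of complex IV. *Atp5l* (0.41, SE 0.08) and *Atp5md* (0.36, SE 0.08) encode small membrane subunits of ATP synthase. *Cox6c* had 0.45 (SE 0.09), *Cox7a2l* 0.40 (SE 0.08) and *Cox7c* 0.26 (SE 0.08). Lower were *Sdhb* (-0.28, SE 0.09, higher in 2 of 15 mice), *Atp5j2* (-0.25, SE 0.08) and the alpha subunit gene *Atp5a1* (-0.21, SE 0.08, higher in 0 of 15 mice). Background was lower in DG, with a median share of 45.8% against 59.96% in CA1. With the share as a covariate 1 member was higher and 11 were lower, at a median of -0.17 with 11 of 40 folds above 0. *Atp5g2* was the one that stayed higher (0.43), and *Sdhb* (-0.46), *Atp5j2* (-0.47) and *Atp5a1* (-0.56) stayed lower.

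The 3 genes for the c subunit, whose ring turns in the membrane as protons pass, ranked the regions differently although their mature proteins are known to be identical. *Atp5g2* had its highest level in DG, with 116, 142 and 217 CPM (lowest, median and highest) against 70.3, 88.9 and 123 CPM in CA1. DG was higher in 15 of 15 mice (0.67, SE 0.08, adjusted p = 1.2e-12). The CA3 fold of *Atp5g2* was 0.22 (SE 0.09, adjusted p = 0.0551).

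*Atp5g3* was highest in CA3, with 179, 371 and 484 CPM against 153, 252 and 296 CPM in CA1 (0.44, SE 0.08). In DG it had 170, 243 and 320 CPM (0.02, SE 0.08, adjusted p = 0.899). *Atp5g1* had 106, 262 and 469 CPM in CA3 and 144, 221 and 275 CPM in CA1 (0.33, SE 0.09, adjusted p = 0.00112). It had 106, 165 and 370 CPM in SO and 137, 185 and 237 CPM in the cortex, where it stood below the hippocampal mean (log2 fold -0.24, SE 0.06). Neighbouring regions in each order overlapped across mice. Differences in response between the 3 genes were not tested against each other. The NRF1 motif was in *Atp5g2* and also in *Cox6a1*, *Atp5k* and *Uqcrc1*, none of which was called in DG. A link between the motif and the DG level was not tested. *Atp5g1* and *Atp5g3* are not printed because their listed start lies within the annotated gene. The 150 bases before the start of *Atp5g2*, the member with the largest DG fold, are on GRCm38.p6 with the NRF1 motif in capitals.
Atp5g2, chr15:102671048-102671197, minus strand: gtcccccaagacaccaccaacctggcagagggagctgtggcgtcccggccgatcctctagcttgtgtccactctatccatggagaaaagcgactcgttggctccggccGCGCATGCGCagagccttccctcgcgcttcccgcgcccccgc

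**Figure D3:**
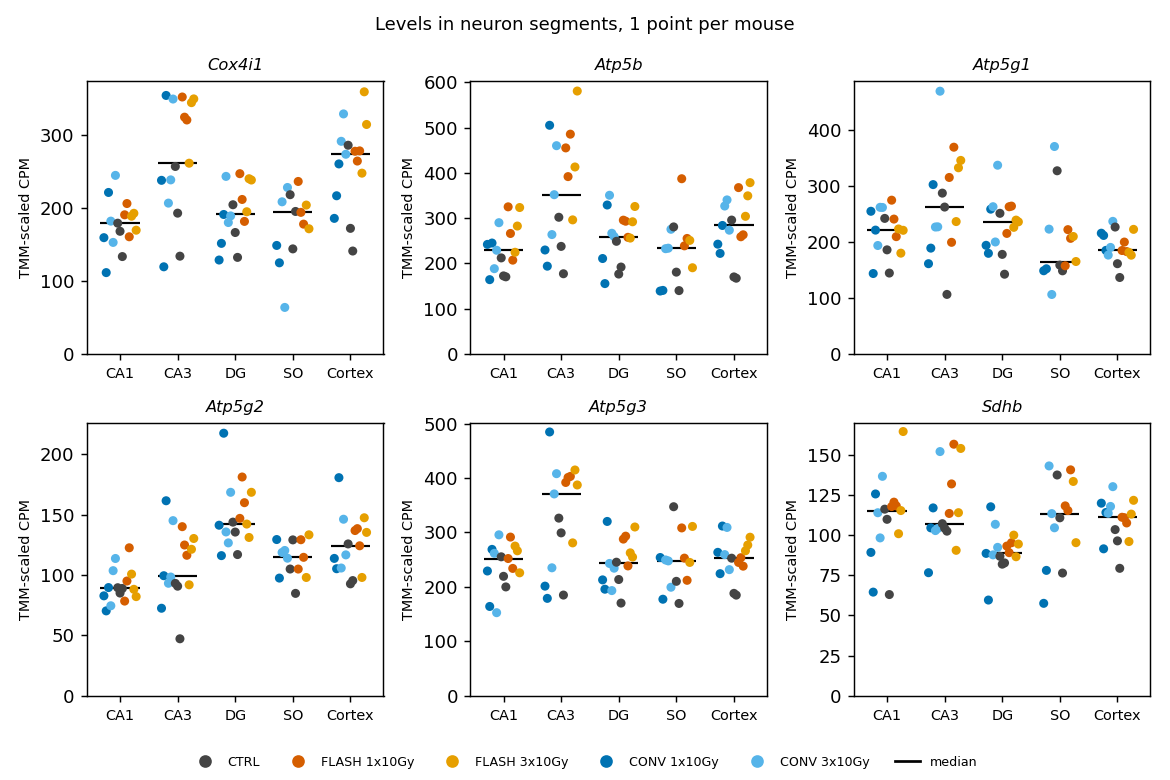
TMM-scaled CPM (y axis, from 0) of 6 members in neuron segments of 5 regions (x axis), 1 point per mouse coloured by treatment, with the median as a line. *Cox4i1*, *Atp5b* and *Atp5g3* are high in CA3, *Atp5g2* in DG, and *Atp5g1* has a median of 185 CPM in the cortex against 262 in CA3.

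SO neurons could not be set apart from CA1 neurons. No member passed (1 had an unadjusted p under 0.05), as 0.00998% of all genes did, and the median fold was 0.04. The largest was again *Atp5g2* with 0.34 (SE 0.10, adjusted p = 0.483). Cortical neurons had 8 members higher and 4 lower than the mean of the 4 hippocampal regions, where 13.3% of all genes were higher and 15% lower. Higher were *Cox4i1* (0.36, SE 0.06, 14 of 15 mice), *Cox6a1* (0.23), *Cox6c* (0.22, 15 of 15 mice), *Cox8a* and *Cox7b* of complex IV and *Atp5d* (0.24), *Atp5md* (0.23) and *Atp5o* (0.21) of complex V. *Atp5d* is the delta subunit and *Atp5o* the oligomycin sensitivity protein of the peripheral stalk. Lower were *Atp5g1*, *Atp5j2* (-0.14), *Cox7c* (-0.16) and *Uqcrb* (-0.15). Without the mouse block 5 were higher and 1 lower, and with the CTRL mice alone 0 and 1. All 4 markers of cortical excitatory neurons were higher there, as were 5 of 8 general neuron markers and 5 of 6 oligodendrocyte markers.

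In hippocampal neurons members of complexes IV and V were higher after FLASH 1x10Gy than in CTRL when slide was held in the fit. For each mouse the counts of its 4 hippocampal regions were added, and 26 of 40 members rose and 0 fell (edgeR, adjusted p < 0.05, slide as a factor), where 6.44% of all genes rose. The median log2 fold was 0.59 (all genes -0.01). Of complex IV 10 of 11 rose (median 0.85), of complex V 14 of 17 (0.63), of complex III 2 of 8 (0.37) and of complex II 0 of 4 (0.25). Whether this split by complex follows the signal level of the probes was not tested either. The slides did not hold each group. Slide 4 held FLASH 1x10Gy A with CTRL C and CONV 1x10Gy A, slide 5 held FLASH 1x10Gy B and C with CONV 1x10Gy B, and CTRL A and B lay on slides 1 and 2 with mice A and B of the 3x10Gy groups. The library plates (D, E and F) differed too: FLASH 1x10Gy was on plate F, apart from DG of mouse A on E, CTRL A and B were on D and CTRL C on E. Outside DG no plate held hippocampal libraries of both groups, and with plate beside slide in the fit 0 members passed at a median of 0.61 (0 and 0.98 with plate in place of slide).

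*Atp5b* was at 346, 312 and 318 CPM in FLASH 1x10Gy A, B and C and at 269, 200 and 178 CPM in CTRL A, B and C. All 3 FLASH mice were above all 3 CTRL mice, and CTRL C was lowest. The log2 fold was 1.08 (SE 0.20, adjusted p = 0.00175) with slide in the fit and 0.59 without it. *Cox6b1*, which faces the intermembrane space where cytochrome c docks, had 124.1, 124.8 and 112 CPM after FLASH 1x10Gy and 105.5, 92.6 and 66.1 CPM in CTRL. Again the groups did not overlap (0.87, SE 0.16, adjusted p = 0.00166; 0.43 without slide).

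*Atp5pb*, subunit b of the stalk, was at 199, 197 and 168 CPM against 166, 147 and 97.9 CPM (0.98, SE 0.18, adjusted p = 0.00166). FLASH 1x10Gy C exceeded CTRL A by little. *Uqcr11* was at 158, 167 and 147 CPM against 165, 112 and 78.4 CPM, so CTRL A lay within the FLASH range (0.93, SE 0.19). Groups overlapped for *Cox4i1* as well, with 268, 244 and 220 CPM against 223, 174 and 143 CPM (0.92, SE 0.19, adjusted p = 0.00343). *Cox8a* had 0.92 (SE 0.21), *Cox6c* 0.88 (SE 0.18), *Atp5g3* 0.88 (SE 0.19), *Cox5b* 0.86 (SE 0.18), *Atp5j* 0.82 (SE 0.16) and *Cox5a* 0.69 (SE 0.18). Of the 40 members 12 had every FLASH mouse above every CTRL mouse, which 8.62% of all genes had, and 10 of the 12 were also among the 26.

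The catalytic subunits of complex II and the core of complex III did not pass. *Sdha* was at 116, 93.6 and 98.4 CPM after FLASH 1x10Gy and 91.5, 88.0 and 91.4 CPM in CTRL, without overlap (0.35, SE 0.15, adjusted p = 0.12). *Sdhb* had 0.46 (SE 0.16, adjusted p = 0.0542). *Uqcrc1* (0.08, SE 0.21) and *Uqcrfs1* (0.05, SE 0.18) had the smallest folds. The 3 FLASH mice were at 59.7, 44.2 and 55.2 CPM for *Uqcrfs1*, below all 3 CTRL mice at 61.3, 60.4 and 63.5 CPM, and its fold was -0.22 without the slide term.

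**Figure D4:**
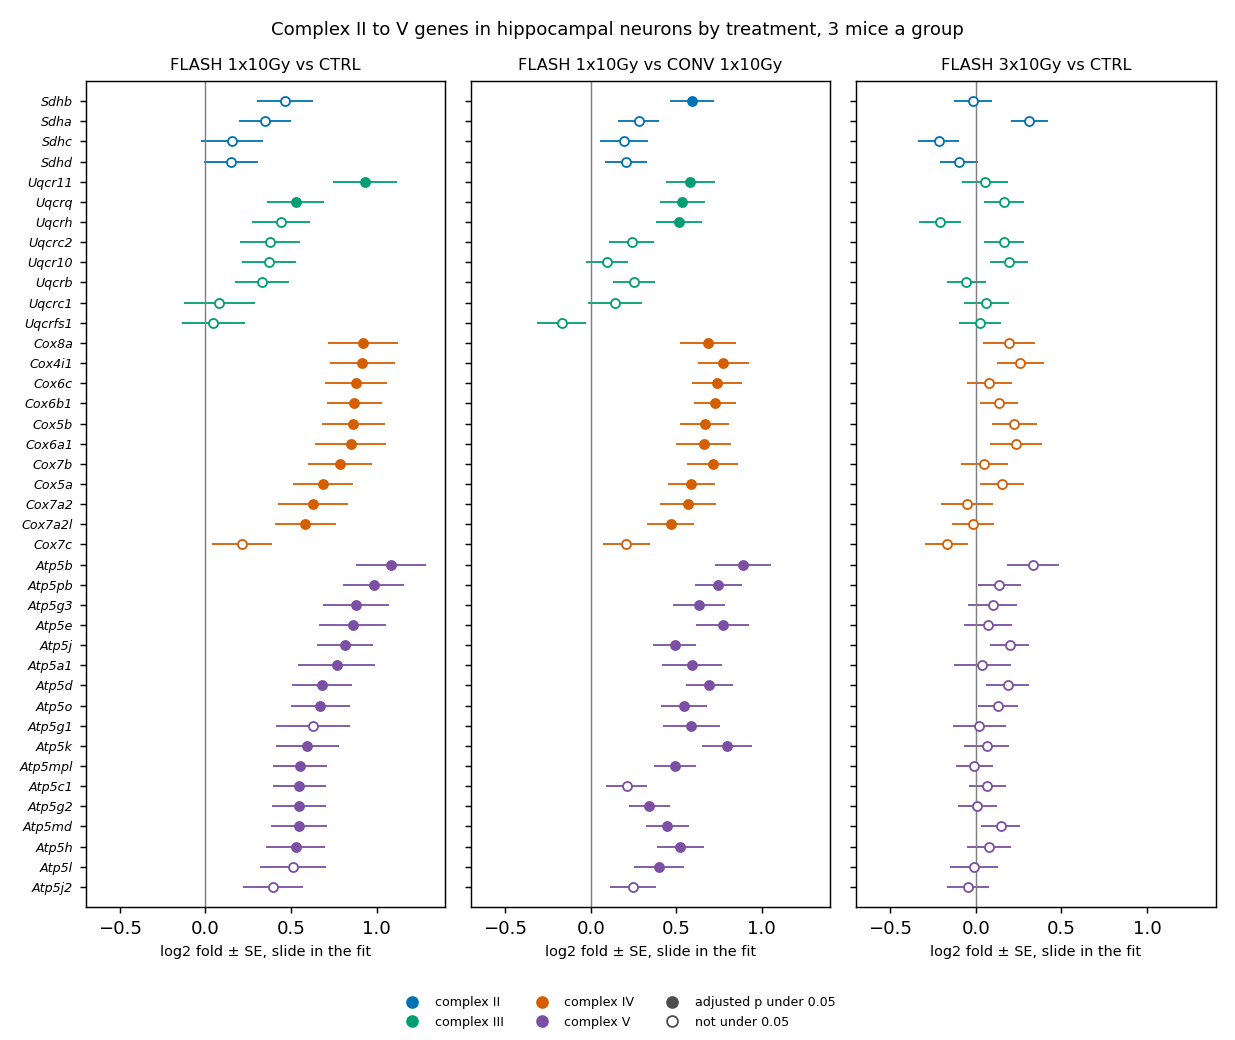
Log2 fold with its standard error (x axis, slide in the fit) of 40 members (y axis, grouped and coloured by complex) in hippocampal neurons, 3 mice a group. Filled points passed adjusted p < 0.05: 26 members for FLASH 1x10Gy against CTRL, 29 against CONV 1x10Gy and 0 for FLASH 3x10Gy against CTRL.

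Against CONV at the matched dose members were higher in the fit as well, although the mice of the 2 groups overlapped. Of 40 members 29 were higher after FLASH 1x10Gy than after CONV 1x10Gy and 0 lower (11.3% of all genes were higher), with a median of 0.54. Complex IV had 10, complex V 15, complex III 3 and complex II 1, *Sdhb* (0.59, SE 0.13, adjusted p = 0.00174). By p-value *Cox6b1* led with 0.73 (SE 0.12, adjusted p = 0.00032), then *Atp5b* with 0.89 (SE 0.16) and *Atp5k*, subunit e, with 0.80 (SE 0.15). *Cox6b1* was at 73.6, 73.2 and 124.7 CPM in CONV 1x10Gy A, B and C. Mouse C, on slide 3 with no FLASH 1x10Gy mouse, was as high as the FLASH mice, and mice A and B were far below. In none of the 40 members did every FLASH mouse exceed every CONV mouse (5.86% of all genes did). Both comparisons share the FLASH 1x10Gy mice. CONV 1x10Gy A and B were on plate F with the FLASH mice, and with plate beside slide 25 members passed (median 0.54) and in place of it 0 (0.53).

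Within slides the direction was the same. On slide 4 FLASH 1x10Gy A was above CONV 1x10Gy A in 39 of 40 members (median log2 difference 0.40), and on slide 5 the mean of FLASH 1x10Gy B and C was above CONV 1x10Gy B in 39 (0.57). On plate F the 3 FLASH mice averaged above CONV 1x10Gy A and B in 39 (0.52). These are the same mice as on slides 4 and 5, so the plate adds no separate comparison. FLASH 1x10Gy A was above CTRL C, the only CTRL mouse that shared a slide with this group, in 38 (0.60). The background share was lower in the higher mouse each time: 52.8% against 61.6%, 50.05% against 62.7%, 50.9% against 62.1% and 52.8% against 67.8%. CTRL C was also below mice of the other irradiated groups. On slide 4 CONV 1x10Gy A was above it in 32 of 40 members (0.17). On plate E CONV 1x10Gy C was above it in 38 (0.79), FLASH 3x10Gy C in 37 (0.68) and the mean of CONV 3x10Gy B and C in 39 (0.48).

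The mice with the highest and lowest levels differed in background. Across mice the median deviation of the 40 members from the mean of all mice was highest in the mice of slide 3, CONV 1x10Gy C (0.30), FLASH 3x10Gy C (0.25) and CONV 3x10Gy C (0.24), which had background shares of 43.9, 48.5 and 43.1%. It was lowest in CONV 1x10Gy B (-0.42) and CTRL C (-0.41), at 62.7 and 67.8%. The order was not complete, since CONV 3x10Gy B had -0.09 at 66.9%. CONV 1x10Gy B was among the 3 lowest mice in 38 of 40 members, CTRL C in 34 and CONV 1x10Gy A in 22. The share averaged 50.9% (SD 1.57) in FLASH 1x10Gy, 53.0% (SD 4.74) in FLASH 3x10Gy, 56.1% (SD 10.6) in CONV 1x10Gy, 57.9% (SD 12.9) in CONV 3x10Gy and 60.4% (SD 6.94) in CTRL. With it as a covariate beside slide 0 members passed in either comparison, with medians of 0.33 and 0.32. Without the slide term 0 passed and the medians were 0.27 in both. Leaving out CTRL C also left 0 against CTRL, at a median of 0.61 and with the 11 named called members at 0.56 to 1.21 (0.69 to 1.08 with all mice). Without CTRL C no slide held both groups, and only CONV 1x10Gy C on slide 3 linked their slides in the fit. That mouse had the highest deviation, so these folds rest on it, and the same link applied in CA3, DG and the cortex. Against CTRL 5 were called without FLASH 1x10Gy A, 9 without CONV 1x10Gy B and 17 without CONV 1x10Gy C. Leaving out CONV 1x10Gy B left 0 against CONV, at a median of 0.49, and leaving out FLASH 1x10Gy A left 19.

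General neuron markers moved with the members. Of 8 such genes 6 rose and 0 fell after FLASH 1x10Gy against CTRL (median 1.00), and their sum was 2968 to 3046 CPM in FLASH 1x10Gy, 1582 to 3072 in CTRL and 1448 to 3265 in CONV 1x10Gy. Oligodendrocyte markers had 0 of 6 called (median 0.11), with sums of 550.1 to 676.2 CPM in FLASH 1x10Gy and 529.5 to 867.4 in CTRL. Astrocyte markers had 0 of 5 called and microglial markers 0 of 1. The part of neuron content and background in the result was not tested beyond the fits above.

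**Figure D5:**
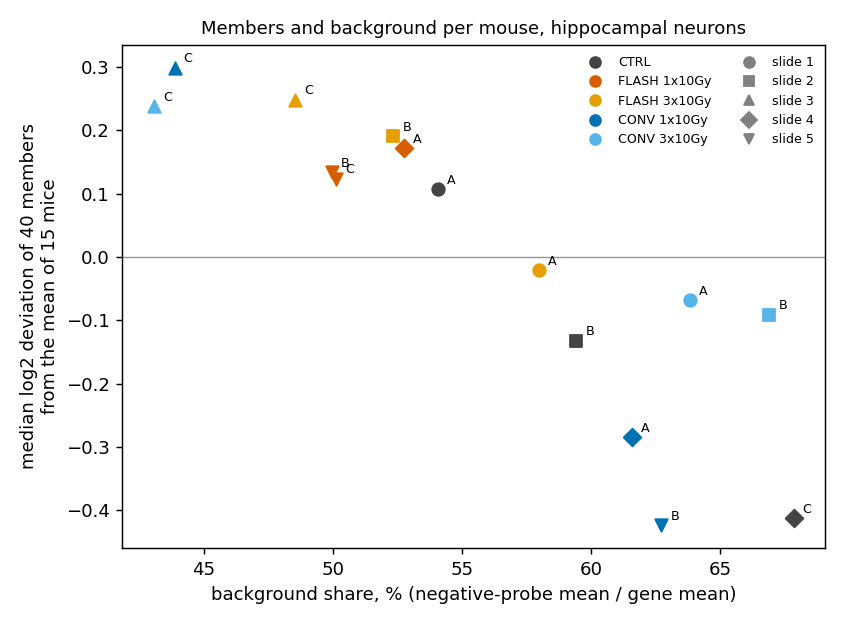
Median log2 deviation of the 40 members from the mean of 15 mice (y axis) against the background share (x axis, %) in hippocampal neurons, 1 point per mouse, coloured by treatment, shaped by slide and lettered by mouse. The mice of slide 3 lie at the top left and CTRL C and CONV 1x10Gy B at the bottom right.

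By subregion members were called in CA3, DG and SO, and the subregions were not tested against each other. In CA3 18 members rose after FLASH 1x10Gy against CTRL and 0 fell (2.97% of all genes rose), at a median of 0.93. Of these 12 were of complex V and 6 of complex IV. *Cox5b*, a zinc-binding subunit of complex IV, was at 230, 299 and 280 CPM in FLASH 1x10Gy A, B and C and at 192, 198 and 62.6 CPM in CTRL (1.53, SE 0.30, adjusted p = 0.000344). CTRL C was far below the others. *Cox4i1* had 1.38 (SE 0.29) and *Atp5b* 1.36 (SE 0.29), with 449, 387 and 478 CPM for *Atp5b* against 298, 235 and 176 CPM. In CA3 the background share averaged 57.1% in FLASH 1x10Gy and 67.1% in CTRL, with CTRL C at 78.3%. No call remained without CTRL C (median 0.83), with plate beside slide (0.91) or in place of it (1.17), without a slide term (0.40), with slide as a random block (0.62), with the background share as a covariate (0.46) or with the mixed model (0.82), and 1 remained without FLASH 1x10Gy A, 7 and 9 without CONV 1x10Gy B or C and 11 without FLASH 3x10Gy C.

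Against CONV 1x10Gy 23 members were higher in CA3 and 0 lower (6.47%; median 0.85), led by *Atp5k* (1.33, SE 0.25, adjusted p = 3.53e-05), *Atp5a1* (1.28, SE 0.25) and *Atp5d* (1.25, SE 0.24). *Atp5k* was at 229, 160 and 189 CPM after FLASH 1x10Gy and at 82.8, 78.0 and 206 CPM after CONV 1x10Gy, where mouse C again lay within the FLASH range. The 23 calls became 19 with plate beside slide, 9 without FLASH 1x10Gy A, 2 without CONV 1x10Gy B (median 0.81), 2 with the mixed model and 0 without a slide term, with a random slide block, with plate in place of slide or with the background covariate.

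In DG 10 members rose against CTRL (2.52%; median 0.51) and 10 were higher than in CONV 1x10Gy (3.87%; median 0.37), with 0 in the other direction. *Uqcr11* led the first with 154, 160 and 139 CPM against 144, 103 and 77.3 CPM (0.91, SE 0.22, adjusted p = 0.00656), and *Atp5pb* the second (0.70, SE 0.17, adjusted p = 0.00321). The DG calls rested on few mice: against CTRL 0 were called without CTRL C, 1 without FLASH 1x10Gy A or CONV 1x10Gy C, 4 without FLASH 1x10Gy B or CONV 1x10Gy B, 6 without CTRL B and 16 without CTRL A. Against CONV 0 were called without CONV 1x10Gy B, 2 without FLASH 1x10Gy B, 3 without FLASH 1x10Gy A or CONV 1x10Gy A and 18 without FLASH 3x10Gy B. DESeq2 called 3 and 2, and both were 0 without a slide term, with a random slide block, the mixed model, subtracted background or the background covariate. With plate beside slide 11 and 3 were called, and 0 with plate in place of it. On plate F the mean of FLASH 1x10Gy B and C was above that of CONV 1x10Gy A and B in 34 members (median 0.33), and on plate E FLASH 1x10Gy A was above CONV 1x10Gy C in 13 (-0.12), with background shares of 48.4 and 36.9%. In SO *Atp5b* alone was higher than in CONV 1x10Gy (0.599% of all genes; 1.03, SE 0.22, adjusted p = 0.0103), at 389, 239 and 254 CPM against 139 and 141 CPM, a call lost without FLASH 1x10Gy A or either CONV mouse, with DESeq2, the mixed model, the background covariate or a random slide block, and without a slide term. In CA1 no member passed in any comparison, although the median after FLASH 1x10Gy against CTRL was 0.59 and 20 members had an unadjusted p under 0.05 with a higher value. Over the 19 subregion comparisons without a call 0.108% of all genes passed, and 70 member tests of 760 had an unadjusted p under 0.05 with a higher value and 11 with a lower one.

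After FLASH 3x10Gy, CONV 1x10Gy and CONV 3x10Gy no member passed against CTRL in hippocampal neurons, nor did any for FLASH 3x10Gy against CONV 3x10Gy. Of all gene tests in these 4 comparisons 0.00250% passed, and of the 160 member tests 7 were higher and 2 lower at an unadjusted p under 0.05. The members with the smallest p of each complex after FLASH 3x10Gy were *Sdha* (0.31, SE 0.11), *Uqcr10* (0.19, SE 0.11), *Cox4i1* (0.26, SE 0.14) and *Atp5b* (0.33, SE 0.15), at adjusted p = 0.983. *Atp5b* was at 260, 337 and 404 CPM after FLASH 3x10Gy, with only mouse A inside the CTRL range. After CONV 1x10Gy they were *Sdhb* (-0.13, SE 0.15), *Uqcr11* (0.35, SE 0.17), *Cox8a* (0.24, SE 0.18) and *Atp5c1* (0.34, SE 0.14), and after CONV 3x10Gy *Sdha* (0.18, SE 0.12), *Uqcrh* (-0.25, SE 0.13), *Cox7a2l* (-0.30, SE 0.13) and *Atp5mpl* (-0.24, SE 0.12). These are far from the threshold. Between FLASH 3x10Gy and CONV 3x10Gy the values were -0.28 (SE 0.12) for *Sdhc*, 0.23 (SE 0.12) for *Uqcrq*, 0.28 (SE 0.12) for *Cox7a2l* and 0.23 (SE 0.11) for *Atp5mpl*. The 3 slides that held both groups gave medians of 0.07, 0.30 and 0.00, with FLASH higher in 29, 35 and 22 of 40 members.

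Cortical neurons had no called member in any of 6 treatment comparisons, where 0.0116% of all gene tests passed. Of the 240 member tests 25 were higher and 0 lower at an unadjusted p under 0.05. Medians against CTRL were 0.45 after FLASH 1x10Gy, 0.21 after FLASH 3x10Gy, 0.23 after CONV 1x10Gy and 0.17 after CONV 3x10Gy. *Atp5md* had the smallest p of complex V after FLASH 1x10Gy, with 153, 161 and 131 CPM against 149, 108 and 78.5 CPM in CTRL (0.91, SE 0.26, adjusted p = 0.179). *Cox6b1* followed with 114, 128 and 114 CPM against 100, 96.3 and 60.4 CPM (0.80, SE 0.25, adjusted p = 0.186). CTRL C was the lowest mouse in both, and its cortical background share was 76.7%, the highest of the 15. Without CTRL A 19 members passed after FLASH 1x10Gy.

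No other leading value in the cortex passed after adjustment over all genes. After FLASH 3x10Gy *Atp5b* had 0.63 (SE 0.22) and *Cox6a1* 0.49 (SE 0.21), after CONV 1x10Gy *Cox5b* 0.70 (SE 0.25) and *Atp5j2* 0.68 (SE 0.24), and after CONV 3x10Gy *Atp5b* 0.51 (SE 0.22) and *Cox4i1* 0.43 (SE 0.21). None had an adjusted p under 0.797. For FLASH against CONV the medians were 0.18 at 1x10Gy and 0.04 at 3x10Gy. The 2 cortical libraries of 1 mouse differed by a median of 0.23 (log2, absolute, 14 mice), against a standard deviation of 0.24 between mice.

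Hippocampal and cortical responses were compared within mice. No member differed in any of the 4 treatments, where 0.00499% of all gene tests passed, and 0 higher and 2 lower of 160 member tests had an unadjusted p under 0.05. The medians of hippocampus minus cortex were 0.06 after FLASH 1x10Gy, -0.02 after FLASH 3x10Gy, -0.18 after CONV 1x10Gy and -0.13 after CONV 3x10Gy. The calls in hippocampal neurons and their lack in cortical neurons are therefore not shown to differ.

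Genes that work beside the complexes were counted by role. *Atpif1*, the inhibitor that stops ATP synthase from running backwards, was higher in CA3 than in CA1 (log2 fold 0.70, median 242.7 against 154.0 CPM) and in the cortex than in the hippocampus (0.42), and it rose after FLASH 1x10Gy against CTRL (0.81) and CONV 1x10Gy (0.70) in hippocampal neurons. Of 6 carriers and porins 3 were higher in CA3 than in CA1 (*Slc25a4*, the ADP/ATP carrier, and the porins *Vdac1* and *Vdac3*), and 3 rose after FLASH 1x10Gy against CTRL (*Slc25a4*, *Vdac1* and *Vdac2*; median of the list 0.31). Of the cytochromes c and c1, *Cyc1* was higher in CA3, and neither rose against CTRL. Of 24 assembly factors tested 0 rose and 1 fell after FLASH 1x10Gy against CTRL (*Sco2*, a copper chaperone; median -0.05), where 6.44% of all genes rose. In CA3 against CA1 5 of them were higher and 0 lower (median -0.02), where 11.4% of all genes were higher. No list was tested against another. Of 8 regulators of mitochondrial gene expression 0 changed after FLASH 1x10Gy against CTRL (median -0.04), and *Gabpa* was lower in CA3 than in CA1.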

How the data were processed

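GeoMx mouse whole transcriptome libraries from 15 mice on 5 slides were read from the deposited files as counts, whole numbers per probe that the authors had left unscaled after matching reads to probe tags and collapsing molecular identifiers. Per the labels, R 4.4.0 and edgeR were used by the submitters. Probes of 1 gene were summed. The study's library limits were applied: 1000 raw reads, 80% of reads trimmed, 80% stitched, 75% aligned, saturation of 50% and detection of 5% of genes. A gene was detected above the negative probes' geometric mean multiplied by the square of their geometric standard deviation. Limits on nuclei were not applied, and 1 of 285 libraries was not used. Genes above the limit in 5% of kept libraries were tested (10019). Neuron libraries totalled 157915 to 2022070 counts, which limits precision most in SO.

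Counts were summed per mouse and region, so n is the mouse, except in the mixed model over libraries described below. edgeR 4.0.16 (R 4.3.3) quasi-likelihood tests (robust, 2-sided) with TMM scaling and Benjamini-Hochberg adjusted p < 0.05 over all genes held slide as a factor in treatment comparisons and the mouse as a block in region comparisons. The labels give each mouse a group and slide and each library 1 of 3 plates, which treatment groups shared unevenly. P-values of treatment comparisons rest on the spread between these mice that is left once slide is fitted. Those of region comparisons rest on how region differences within a mouse vary across mice. The labels tie regions to a mouse, and with group means taken off the 142 pairs of regions had a median correlation of 0.10, and 132 were above 0. Simulated data held 200 changed genes of 10019. The hippocampal fit of FLASH 1x10Gy against CTRL recovered 17.0% of them at a log2 fold of 0.5 and 93.0% at 1. The regional fit of CA3 against CA1 over all mice recovered 91.5% and 100.0%. The simulated counts had the same relative spread for all genes and no slide, plate, mouse or background differences. These rates therefore do not cover such differences, and the CA3 treatment fits were not simulated.

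Alternatives were a fit that ignored slide, a random slide effect (limma 3.58.1), a mixed model over libraries as in the study (lmerTest 3.1.3), DESeq2 1.42.0, DESeq2 size factors, subtracted background, background share as covariate, plate beside or in place of slide (chosen after seeing the data, with the plate of most libraries for a mouse), other gene filters, CTRL mice alone, no mouse block, and each mouse left out. Members and lists were chosen with earlier results of these data known, so no list is tested as such and none is independent support. Named members were those called with the smallest p (at most 10 per treatment comparison) or the largest fold (at most 3 up and 3 down per complex and region comparison), the member with the smallest p of each complex where none was called, core genes and isoform families. A few further called members are named only by direction.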

Additional observations from a re-analysis of the deposited data

How the results depend on the processing

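Every member that passed for CA3 against CA1 under any setting was higher in CA3, whereas the DG and cortex calls moved with background. The fold of *Uqcr10*, called with all mice, was below 0 with the CTRL mice alone, where it did not pass. With the background share as a covariate CA3 had 30 members higher and 0 lower, DG 1 and 11, and the cortex 13 and 2. With background subtracted these were 31 and 0, 6 and 3, and 11 and 0. For CA3 against CA1 leaving out 1 mouse gave 23 to 29 called members, and for DG against CA1 9 to 10. With the CTRL mice alone 4 and 2 were called, from 3 mice. For cortex against hippocampus leaving out 1 mouse gave 9 to 15, CTRL mice alone 1, and the fit with no replicate block 6 in place of 12. Without the block that pairs regions of a mouse CA3 against CA1 had 24 calls, DG against CA1 7, and SO against CA1 and the response difference 0.

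The treatment calls depend on how slide enters and on a few mice. For FLASH 1x10Gy against CTRL in hippocampal neurons there were 0 calls without a slide term, with slide as a random block and with the background share as a covariate, and 0 (without CTRL C) to 30 (without CTRL A) when a mouse was left out. The 5 other hippocampal comparisons together had 29 calls, 0 under the same 3 settings, and 0 (without CONV 1x10Gy B) to 29 when a mouse was left out. The study's mixed model called 18 and 22, DESeq2 18 and 25, and subtracted background 18 and 23. That mixed model had slide as its only random term and kept libraries apart, so in the hippocampus each mouse entered several times. Its calls there count repeated libraries like extra mice and cannot be weighed like those of the fits on mouse sums. Plate, added after seeing the data, gave 0 and 25 beside slide and 0 and 0 in place of it. Both plate fits could not be fitted in SO, nor plate beside slide in the cortex. The 24 subregion comparisons had 62 calls together, 0 under the same 3 settings, 2 with the mixed model and 13 (without CONV 1x10Gy B) to 75 (without CTRL A) when a mouse was left out. Without CTRL C the SO fit could not be run, since its slides no longer connect. In the cortex leaving out a mouse gave 0 to 19 calls for FLASH 1x10Gy against CTRL and 0 to 15 for the 5 others (highest without CTRL A), and the background covariate gave 1 for the others. SO against CA1 and the response difference had 0 throughout. The cause of these changes was not tested.

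Of 144 named folds under all alternatives 21 of 3606 values changed sign. *Uqcrc1* after FLASH 1x10Gy against CTRL in the hippocampus was -0.14 without a slide term, -0.17 with plate beside slide, -0.25 with plate in place of it, -0.067 with slide as a random block and -0.067 with the mixed model, and it ran from -0.084 (without CTRL C) to 0.16 when a mouse was left out, also below 0 without FLASH 1x10Gy A. *Uqcrfs1* was -0.22 without a slide term, -0.13 with the random block and -0.10 with the mixed model, and ran from -0.078 (without CONV 1x10Gy C) to 0.36, also below 0 without FLASH 1x10Gy C. Without a slide term *Cox7a2l* (0.00016) and *Uqcrh* (0.016) changed sign for CONV 3x10Gy, as they did with plate in place of slide (0.016 and 0.0021), where *Sdhb* for CONV 1x10Gy was 0.26. In the cortex *Sdhb* after CONV 1x10Gy ran from -0.015 (without CTRL C) to 0.43, and *Cox7b* between FLASH 3x10Gy and CONV 3x10Gy from -0.031 (without CONV 3x10Gy C) to 0.31, also below 0 without FLASH 3x10Gy B. *Uqcr10* in CA3 against CA1 was -0.071 with CTRL mice alone.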
